A study of Homo sapiens with 6 samples.

Results

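Interferon-stimulated genes are the genes that a cell switches on when interferon binds its receptors. The set described here holds 39 of them, chosen by symbol with earlier results of these data known. Each symbol matched 1 of the 58735 gene identifiers in the deposited files. Expression was measured by RNA sequencing in A549, an established line of human non-small cell lung cancer cells labelled as wild type. Of the 6 libraries, 3 came from untreated cells at 72 h and 3 from cells exposed for 72 h to 2 µM B35, a compound that the series describes as inhibiting LSD1, a histone demethylase. The labels give the untreated cells no solvent. They also leave it unsaid whether replicate libraries are separate cultures, and the p-values below therefore reflect the spread among these libraries alone, which may be technical.

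Type I and type III interferons act through receptor-bound JAK kinases on the STAT proteins, and STAT2 joins IRF9 in the factor that binds the interferon-stimulated response element in promoters. Type II interferon acts mainly through STAT dimers at gamma-activated sequences. The products then block viruses at many steps: OAS enzymes sense double-stranded RNA, IFIT proteins bind foreign RNA, IFITM proteins hinder fusion at membranes, and ISG15 is attached to other proteins. Many tumour lines express some of these genes without any added interferon.

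Library totals ran from 17141478 to 18530670 counts. Of the markers of epithelial cells, KRT8 and KRT18 were abundant and KRT19 was near 0, with 25 counts over the 6 libraries. The sum over 5 epithelial markers was 2160 to 2247 CPM (counts divided by the TMM-adjusted library size, on the usual common scale) in control libraries and 1396 to 1739 CPM in B35 libraries, most of it from KRT8 and KRT18. KRT8 fell from 1663 to 1117 CPM, while EPCAM, of the same list, rose from 3.36 to 7.21 CPM. Of the leukocyte markers, PTPRC had 1 count over all 6 libraries together and CD3E and LYZ had none, and the sum over 5 leukocyte markers was 1.25 to 1.55 CPM in control libraries and 1.21 to 1.53 CPM in B35 libraries. The sums over 4 fibroblast markers were 24.5 to 25.6 and 19.2 to 21.3 CPM, and those over 3 endothelial markers 5.85 to 9.22 and 7.38 to 9.44 CPM. In bulk libraries fewer cells of a type and less RNA per cell cannot be told apart, and the part of these marker levels in the results was not tested. B35 replicate 1 stood apart from the other B35 libraries (chi-square per degree of freedom of 26.3 and 32.3 against them, and 10.2 between replicates 2 and 3). Mitochondrially encoded genes took 5.2% of its counts, 3.52% and 4.04% in the other B35 libraries, and 4.14% to 4.35% in the controls.

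Many interferon-stimulated genes were higher in B35-treated cells, while several of the most abundant ones were not. Of the 39 genes, 35 had enough counts to test. Of these, 17 rose and 1 fell at a Benjamini-Hochberg adjusted p under 0.05 in edgeR's quasi-likelihood test, where 8.82% of the 14773 genes tested rose and 6.59% fell. Because the set was chosen with earlier results of these data known, the comparison of these shares is a description. IRF9 and TRIM22 reached the count filter only through their B35 libraries, and without genes that passed through 1 group alone 15 of 33 members rose, where 8.31% of 13997 genes did. After removal of each library's trends on GC content and exon length, 21 members rose and 2 fell, while over all genes the split turned from 1303 higher and 973 lower to 1714 higher and 2568 lower. The median log2 fold change was 0.44 over the 35 members and 0.0067 over all genes tested, and 30 of the 35 had a value above 0, as had 51% of all genes. In 21 members every B35 library lay above every control library, and in 1 every B35 library lay below, where 18.8% and 17.5% of all genes did so.

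Leaving out control replicate 1, 2 or 3 gave 12, 11 or 10 members that rose, and leaving out B35 replicate 1, 2 or 3 gave 17, 14 or 14. Over all genes the share that rose moved as well, to 4.36%, 5.2% and 3.87% without the controls in that order and to 12.1%, 6.14% and 6.36% without the B35 libraries. In every one of the 6 fits, 9 of the 17 members kept the call, namely OAS1, OAS2, IFIT2, IFIT3, IFI6, IFI27, IFI44, IFI44L and IRF7, and none of the 17 changed sign.

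**Figure D1:**
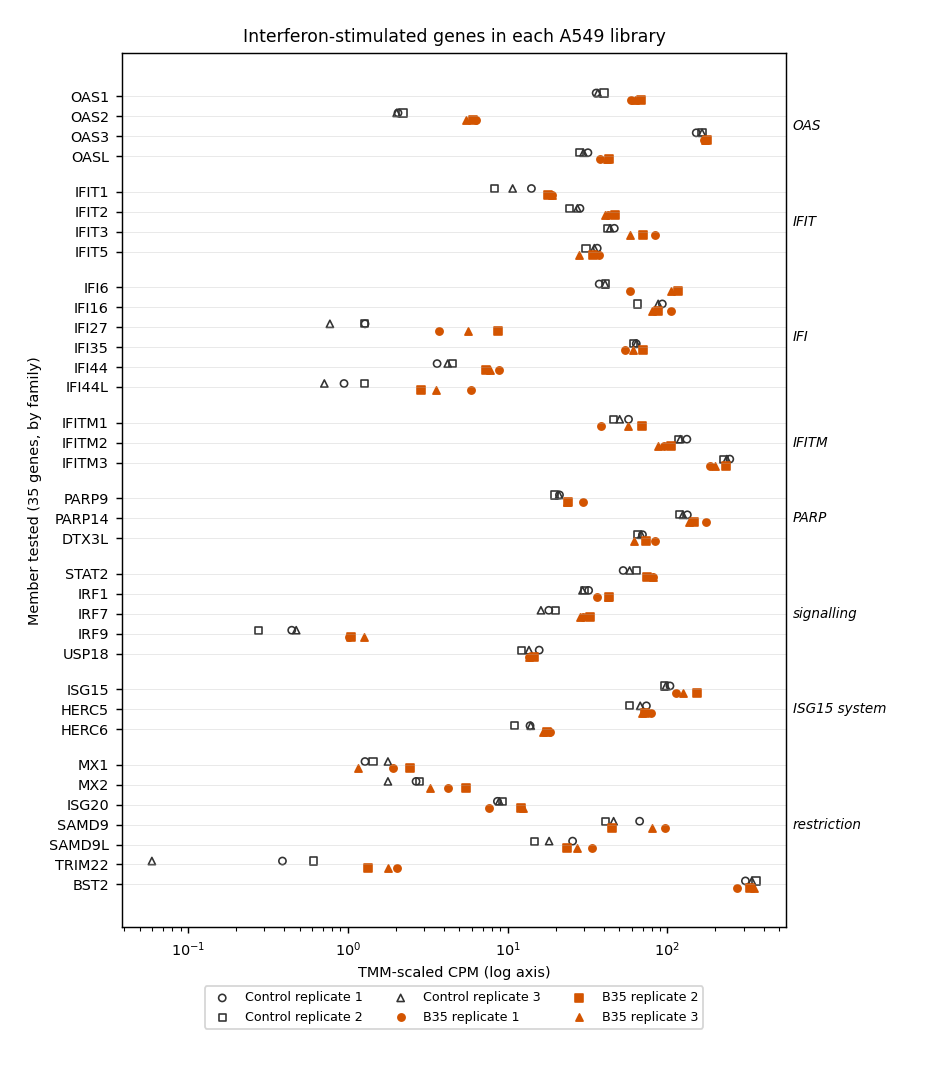
Level of each of the 35 tested members in each library, in TMM-scaled CPM on a log axis. Open symbols are the 3 control libraries and filled symbols the 3 B35 libraries, with 1 symbol shape per replicate. The B35 symbols of OAS2, IFI27 and IFI44L lie to the right of their controls, while those of IFITM3, IFIT5 and BST2 overlap them.

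The oligoadenylate synthetases make a short RNA-like messenger that activates a ribonuclease when double-stranded RNA is present. OAS1, OAS3 and OAS2 lie side by side on chromosome 12 (hg38, 112906777 to 113011723), and OAS1 and OAS2 rose while OAS3 did not pass. OAS2 was measured at 2.06, 2.21 and 2.02 CPM in the control libraries and at 6.33, 6.05 and 5.48 CPM in the B35 libraries. The B35 values were all above the controls, with a log2 fold change of 1.5 ± 0.19 (SE, edgeR adjusted p = 0.000952). OAS1 had 35.8, 40.1 and 36.7 CPM in controls and 59.5, 68.3 and 63.1 CPM with B35, again without overlap (log2 0.76 ± 0.099, edgeR adjusted p = 0.00107). OAS3, the longest enzyme of the family, had 152, 165 and 165 CPM in controls and 170, 177 and 172 CPM with B35. Its groups did not overlap, but the log2 fold change was only 0.11 ± 0.085 and it did not pass (edgeR adjusted p = 0.431). OASL, a relative without synthetase activity, lies apart on the same chromosome (121019111 to 121039242). It rose from 29.9 ± 1.88 to 40.9 ± 2.76 CPM (SD, n = 3 each), at log2 0.45 ± 0.10 (edgeR adjusted p = 0.0156), and it no longer passed when control replicate 2, control replicate 3 or B35 replicate 2 was left out (edgeR adjusted p = 0.0726, 0.084 and 0.0574).

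The IFIT genes encode proteins with repeated helical motifs that bind viral RNA and hold back its translation. All 4 lie within 1 cluster on chromosome 10 (89283694 to 89421001), and the first 3 rose by about the same amount. IFIT2 had 28.4, 24.5 and 27.4 CPM in controls and 42.5, 47.1 and 40.7 CPM with B35 (log2 0.70 ± 0.11, edgeR adjusted p = 0.00252). IFIT3 had 46.6, 42.0 and 43.8 CPM in controls and 84, 70.8 and 58.0 CPM with B35 (log2 0.68 ± 0.13, edgeR adjusted p = 0.0066). IFIT1 had 14.1, 8.31 and 10.8 CPM in controls and 18.9, 18.0 and 19.1 CPM with B35 (log2 0.75 ± 0.17, edgeR adjusted p = 0.0157). In each of these genes the groups did not overlap, and the spread of IFIT1 lay among the controls. IFIT1 no longer passed when control replicate 2 or 3 was left out (edgeR adjusted p = 0.0513 and 0.0709). IFIT5, at the end of the cluster, had 36.4, 31 and 34.9 CPM in controls and 37.5, 34.5 and 28.2 CPM with B35, so the groups overlapped (log2 −0.030 ± 0.13, edgeR adjusted p = 0.905). IFIT2 shares 1.6% of its exon bases with LIPA on the other strand and 8.7% with AL353751.1 on its own, and LIPA had 1916 to 2027 counts in control libraries and 2421 to 2561 with B35.

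The IFI genes are grouped here by name, and 4 of the 6 rose, where 8.82% of all genes did. The IFI genes that rose include IFI27, which had the highest log2 fold change of the tested members. IFI27, a small hydrophobic membrane protein (chromosome 14, 94104836 to 94116698), had 1.28, 1.27 and 0.773 CPM in controls and 3.73, 8.71 and 5.69 CPM with B35 (log2 2.43 ± 0.35, edgeR adjusted p = 0.0017). IFI6, which has a related sequence and restrains cell death (chromosome 1, 27666061 to 27672218), had 37.5, 41.0 and 40.7 CPM in controls and 58.6, 116 and 105 CPM with B35 (log2 1.23 ± 0.21, edgeR adjusted p = 0.00362). In both genes B35 replicate 1 was the lowest of the B35 libraries and still above every control.

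IFI44L and IFI44 are neighbours on chromosome 1 (78619922 to 78664078). IFI44L had 0.948, 1.27 and 0.714 CPM in controls and 5.88, 2.89 and 3.58 CPM with B35 (log2 2.06 ± 0.34, edgeR adjusted p = 0.00355), with B35 replicate 1 the highest. IFI44 had 3.62, 4.54 and 4.22 CPM in controls and 8.87, 7.38 and 7.80 CPM with B35 (log2 0.96 ± 0.17, edgeR adjusted p = 0.00499). IFI16, a nuclear DNA sensor, had 93.0, 65.2 and 87.6 CPM in controls and 106, 86.8 and 80.3 CPM with B35. IFI35, a partner of other induced proteins, had 63.9, 61.1 and 63.9 CPM in controls and 54.2, 70.4 and 61.2 CPM with B35. The groups of IFI16 and IFI35 overlapped, and neither passed (edgeR adjusted p = 0.531 and 0.915).

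**Figure D2:**
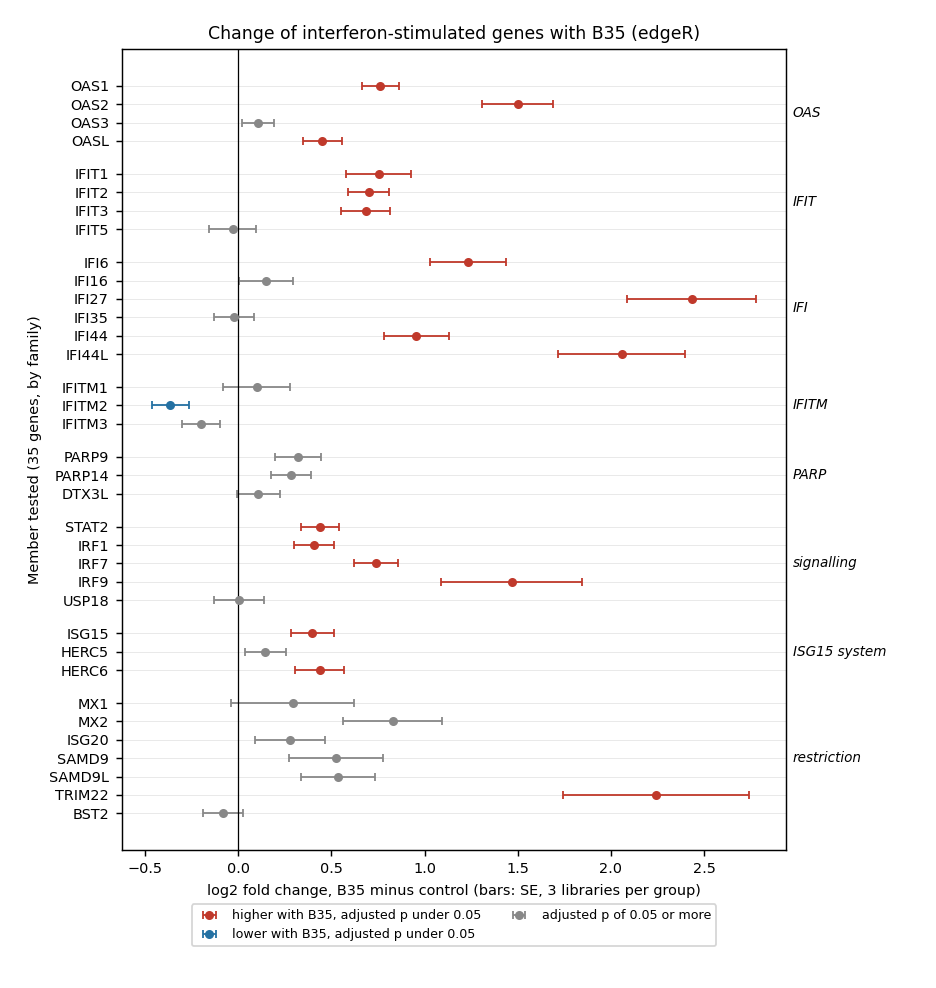
Log2 fold change of B35 over control for the 35 tested members, grouped by family, with bars of 1 SE from 3 libraries per group. Red marks the 17 members that rose, blue the 1 that fell and grey the 17 that did not pass; IFI27 is farthest to the right at 2.43 and IFITM2 farthest to the left at −0.36.

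The IFITM genes, which encode membrane proteins that keep enveloped viruses from fusing with the cell, held no member that rose and the 1 that fell. Over all genes 8.82% rose and 6.59% fell, so nothing about this family is read from these counts. IFITM2 had 132, 117 and 120 CPM in controls and 95, 105 and 87.8 CPM with B35, all below the controls (log2 −0.36 ± 0.10, edgeR adjusted p = 0.0324). It missed the threshold without control replicate 1, 2 or 3 or B35 replicate 3 (edgeR adjusted p = 0.13, 0.0653, 0.112 and 0.0923). IFITM3 had 246, 226 and 235 CPM in controls and 184, 234 and 199 CPM with B35 (log2 −0.20 ± 0.10, edgeR adjusted p = 0.22), and only B35 replicate 2 reached the control range. After removal of the GC and length trends, IFITM3 passed as lower (edgeR adjusted p = 0.0367). IFITM1 had 57.1, 46.2 and 50.3 CPM in controls and 38.4, 69.6 and 56.5 CPM with B35, so B35 replicate 1 lay below the controls and replicate 2 above them (log2 0.099 ± 0.18, edgeR adjusted p = 0.764). These 3 genes sit together on chromosome 11 (307631 to 327537) and are close copies. Of the 31-base words in their transcripts, 35.3% for IFITM1, 45.2% for IFITM2 and 36.4% for IFITM3 also occur in transcripts of other genes. IFITM1 and IFITM2 share 351 exon bases. Shared reads could be split between genes or left uncounted, and which applied was not tested.

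PARP9 and PARP14, ADP-ribosyltransferase family members, and DTX3L, the ubiquitin ligase partner of PARP9, lie in 1 stretch of chromosome 3 (122527924 to 122730840). None of the 3 passed, where 15.4% of all genes did in either direction, so nothing is read from that count. PARP9 had 21.1, 19.8 and 21.0 CPM in controls and 29.8, 24.0 and 23.6 CPM with B35 (log2 0.32 ± 0.12, edgeR adjusted p = 0.102). PARP14 had 133, 119 and 125 CPM in controls and 175, 148 and 137 CPM with B35 (log2 0.28 ± 0.11, edgeR adjusted p = 0.0998). In both genes the groups did not overlap and B35 replicate 1 was the highest library. Both passed after removal of the GC and length trends (edgeR adjusted p = 0.0314 for PARP9 and 0.0235 for PARP14). DTX3L had 69.9, 65.3 and 68.6 CPM in controls and 83.9, 73.9 and 61.7 CPM with B35, with overlapping groups (log2 0.11 ± 0.12, edgeR adjusted p = 0.581). DTX3L and PARP9 share 217 exon bases on opposite strands, and counting is not stated to use strand.

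Among the signalling members, 4 of 5 rose, where 8.82% of all genes did. IRF9, among the 4, passed the count filter only through its B35 libraries. IRF7, the factor that amplifies interferon gene transcription, had 18.1, 19.9 and 16.2 CPM in controls and 29.6, 32.6 and 28.4 CPM with B35 (log2 0.74 ± 0.12, edgeR adjusted p = 0.00312). STAT2 had 52.9, 64.1 and 58.0 CPM in controls and 81.2, 74.5 and 81.6 CPM with B35 (log2 0.44 ± 0.10, edgeR adjusted p = 0.0156). IRF1, a target of gamma-activated signalling and NF-kB, had 32.2, 30.5 and 29.4 CPM in controls and 36.2, 43.2 and 42.5 CPM with B35 (log2 0.41 ± 0.11, edgeR adjusted p = 0.0284). The groups of these genes did not overlap.

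Leaving out 1 library changed the calls of STAT2 and IRF1. STAT2 no longer passed when control replicate 1 or 3 was left out (edgeR adjusted p = 0.0786 and 0.0862). IRF1 no longer passed when control replicate 1, 2 or 3 was left out (edgeR adjusted p = 0.0696, 0.0911 and 0.141), or B35 replicate 2 or 3 (0.0937 and 0.0742). IRF1 shares 22% of its exon bases with C5orf56 on the other strand, which had 24 to 66 counts per library.

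IRF9, the DNA-binding partner of STAT2, was counted at only 0.446, 0.277 and 0.476 CPM in controls and 1.02, 1.05 and 1.26 CPM with B35, from 21 and 61 reads. Its log2 fold change was 1.47 ± 0.38 (edgeR adjusted p = 0.0259), and it did not pass once control replicate 1, 2 or 3 was left out (edgeR adjusted p = 0.0791, 0.108 and 0.0822), once B35 replicate 2 or 3 was (0.059 and 0.0827) and in DESeq2 (0.0801). AL136295.5, on the same strand, covers 48.4% of its exon bases, and had 1 to 9 reads per library. Reads that fit both genes could be split between them or left uncounted, and which applied was not tested. USP18, the protease that removes ISG15 and dampens the type I receptor, had 15.8, 12.3 and 13.6 CPM in controls and 13.7, 14.5 and 13.6 CPM with B35, with overlapping groups (log2 0.0043 ± 0.13, edgeR adjusted p = 0.989). Of the 31-base words of USP18, 30.8% occur in other genes, chiefly USP41.

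ISG15, a ubiquitin-like protein that is attached to other proteins or secreted, had 104, 96.3 and 98.0 CPM in controls and 114, 154 and 125 CPM with B35. All B35 values were above the controls (log2 0.40 ± 0.12, edgeR adjusted p = 0.0416). It did not pass once control replicate 1, 2 or 3 was left out (edgeR adjusted p = 0.0972, 0.132 and 0.159) or once B35 replicate 2 or 3 was (0.145 and 0.0609). HERC5, the main ligase for ISG15 in human cells, had 73.9, 58.1 and 67.6 CPM in controls and 78.6, 72.6 and 69.8 CPM with B35, with overlapping groups (log2 0.15 ± 0.11, edgeR adjusted p = 0.399). HERC6, its neighbour on chromosome 4 (88378739 to 88506163 for the pair), rose from 13 ± 1.63 to 17.5 ± 0.804 CPM (SD, n = 3 each), at log2 0.44 ± 0.13 (edgeR adjusted p = 0.0478). HERC6 missed the threshold when any 1 of the 6 libraries was left out (edgeR adjusted p = 0.0933, 0.179 and 0.107 for the controls in order of replicate, then 0.0543, 0.11 and 0.0735 for the B35 libraries).

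Of the 9 genes of restriction factors and nucleotide enzymes, 7 could be tested and 1 rose, where 8.82% of all genes did. Nothing about this family is read from that count. TRIM22, a ubiquitin ligase of the tripartite motif family (chromosome 11, 5689689 to 5737089), had 7, 11 and 1 reads in the control libraries and 36, 24 and 34 with B35, or 0.390, 0.609 and 0.0595 CPM against 2.03, 1.33 and 1.79 CPM. Its log2 fold change was 2.24 ± 0.50 (edgeR adjusted p = 0.0135), and it missed the threshold without control replicate 1 (edgeR adjusted p = 0.0565). The value was 2.87 without control replicate 2 and 1.77 without control replicate 3. TRIM22, like IRF9, passed the filter on low counts only through its B35 libraries. That route favours genes that are higher with B35, so the call was not independent of the filter.

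MX2, a GTPase that blocks nuclear entry of viral DNA, had 2.68, 2.82 and 1.78 CPM in controls and 4.24, 5.49 and 3.27 CPM with B35, without overlap (log2 0.83 ± 0.27, edgeR adjusted p = 0.0582). It passed without B35 replicate 3 and without the count filter (edgeR adjusted p = 0.0398 and 0.014). MX1, its neighbour on chromosome 21 (41361943 to 41459214 for the pair), had 1.28, 1.44 and 1.78 CPM in controls and 1.92, 2.44 and 1.16 CPM with B35, so the groups overlapped (log2 0.29 ± 0.33, edgeR adjusted p = 0.6).

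SAMD9 and SAMD9L, adjacent growth-restraining genes on chromosome 7 (93099513 to 93148369), varied widely within each group. SAMD9 had 67.1, 41.2 and 46.1 CPM in controls and 96.8, 44.7 and 80.5 CPM with B35 (log2 0.52 ± 0.25, edgeR adjusted p = 0.185). SAMD9L had 25.5, 14.7 and 18.2 CPM in controls and 34.0, 23.5 and 27.1 CPM with B35 (log2 0.53 ± 0.20, edgeR adjusted p = 0.0933). In both genes replicate 1 was the highest library of each group. SAMD9 passed when B35 replicate 2 was left out, and SAMD9L when control replicate 1 was (edgeR adjusted p = 0.0305 and 0.0357). Both also passed without the count filter (edgeR adjusted p = 0.000488 for SAMD9 and 0.00353 for SAMD9L) and after removal of the GC and length trends (0.0317 and 0.00729). Neither passed in DESeq2 (adjusted p = 0.39 for SAMD9 and 0.0566 for SAMD9L) or in limma-voom (0.237 and 0.0838). The groups of both genes overlapped.

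ISG20, an exonuclease, had 8.64, 9.25 and 8.86 CPM in controls and 7.69, 12.2 and 12.5 CPM with B35 (log2 0.28 ± 0.19, edgeR adjusted p = 0.349), and it passed without B35 replicate 1 (edgeR adjusted p = 0.0289). BST2, the tether that holds budding virions at the cell surface, had 308, 359 and 338 CPM in controls and 272, 328 and 349 CPM with B35, with overlapping groups (log2 −0.082 ± 0.11, edgeR adjusted p = 0.664).

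The other 4 members had too few counts to test. RSAD2, the antiviral enzyme viperin, had 2, 5 and 9 reads in controls and 3, 6 and 15 with B35. CMPK2, a nucleotide kinase beside it on chromosome 2, had none in any library. A count of 0 allows up to 3 reads over a group, or 0.0568 CPM in controls and 0.0549 CPM with B35, for counting error only. EPSTI1 had 1 read, in control replicate 2. XAF1, an antagonist of an apoptosis inhibitor, had 1, 2 and 3 reads in controls and 10, 9 and 12 with B35, and in the fit without the filter it passed (log2 2.23 ± 0.79, edgeR adjusted p = 0.0465). PRAL, on the other strand, covers 38.3% of its exon bases and had no reads.

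The B35 libraries did not rank alike across members. Relative to the control mean, IFI6 was 1.47-fold in B35 replicate 1 and 2.93- and 2.65-fold in replicates 2 and 3, and IFI27 was 3.36-, 7.85- and 5.13-fold. IFI44L ran the other way, at 6.01-, 2.95- and 3.66-fold. Over the 35 tested members the median shift from the control mean was 0.48, 0.45 and 0.44 on the log2 scale in B35 replicates 1, 2 and 3, and between −0.057 and 0.079 in the control libraries. The 3 B35 libraries thus had nearly equal medians although single members differed, and the part of the higher mitochondrial share of replicate 1 in this was not tested. Without replicate 1, 16 of the 17 members still rose.

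**Figure D3:**
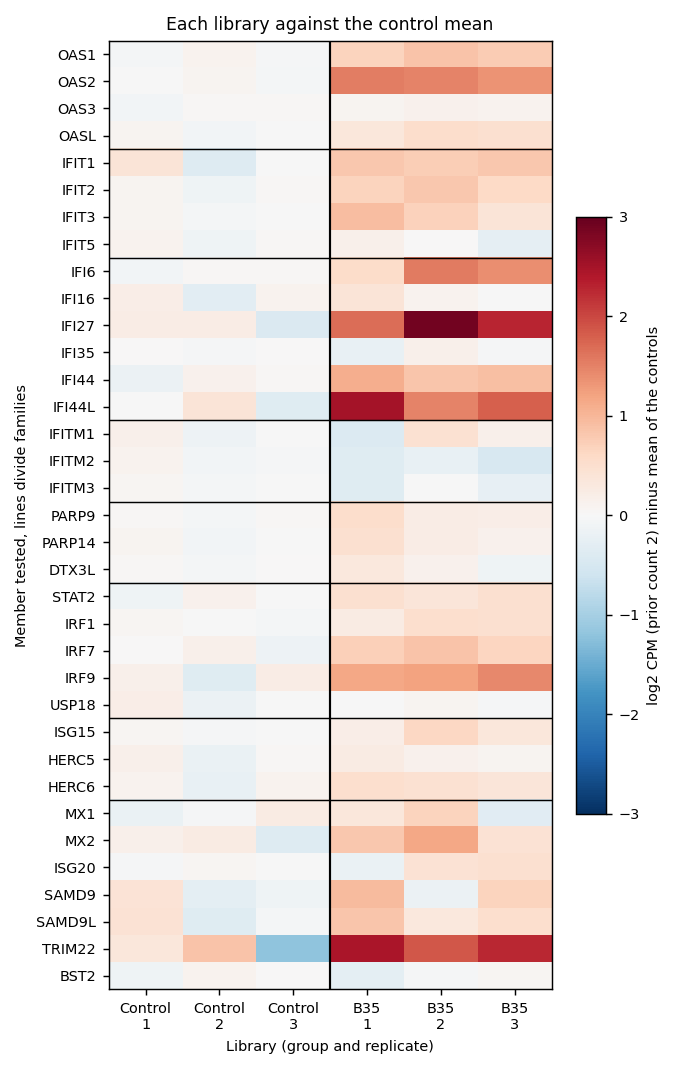
Log2 CPM (with a prior count of 2) of each tested member in each library minus the mean of the 3 controls, with lines between families and between groups. Red is above and blue below the control mean; the B35 columns are red for OAS2, IFI27, IFI44L and TRIM22, and IFI6 is paler in B35 replicate 1 than in replicates 2 and 3.

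Levels can be compared between genes only per length, for which the deposited FPKM were used. These are fragments per kilobase of gene, and how the authors scaled them is not stated. In untreated cells the order was led by BST2 at 298 ± 22.7 FPKM, IFITM3 at 174 ± 7.41, ISG15 at 105 ± 4.13 and IFITM2 at 79.6 ± 5.13 (SD, n = 3 each), each separate from the next. IFITM1 at 47.2 ± 5.10 FPKM and IFI6 at 45.7 ± 2.30 FPKM did not differ beyond their spread. With B35, IFI6 ranked 4 at 106 ± 35.2 FPKM, which did not differ beyond its spread from ISG15 at 137 ± 22.5 FPKM, and IFITM2 ranked 5 at 61.3 ± 5.95 FPKM. At the other end, 11 members were under 1 FPKM in controls, among them OAS2, IFI27, IFI44L, MX1, MX2, IRF9 and TRIM22.

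The members were also counted by level. Of 7 tested members with a mean under 5 CPM over all 6 libraries, 5 rose, with a median log2 fold change of 1.5, where 9.07% of all genes at that level rose. Of 12 members between 5 and 50 CPM, 7 rose (median log2 0.44), where 10.4% of all genes did. Of 16 members above 50 CPM, 5 rose and 1 fell (median log2 0.15), where 6.49% of all genes rose. Of all genes tested, at any level, 6.59% fell. The median log2 fold changes over all genes were 0.147 under 5 CPM, 0.026 between 5 and 50 CPM and −0.069 above 50 CPM. They thus declined with level, as those of the members did. The members under 5 CPM include TRIM22 and IRF9, and their number is small, so this is a description.

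**Figure D4:**
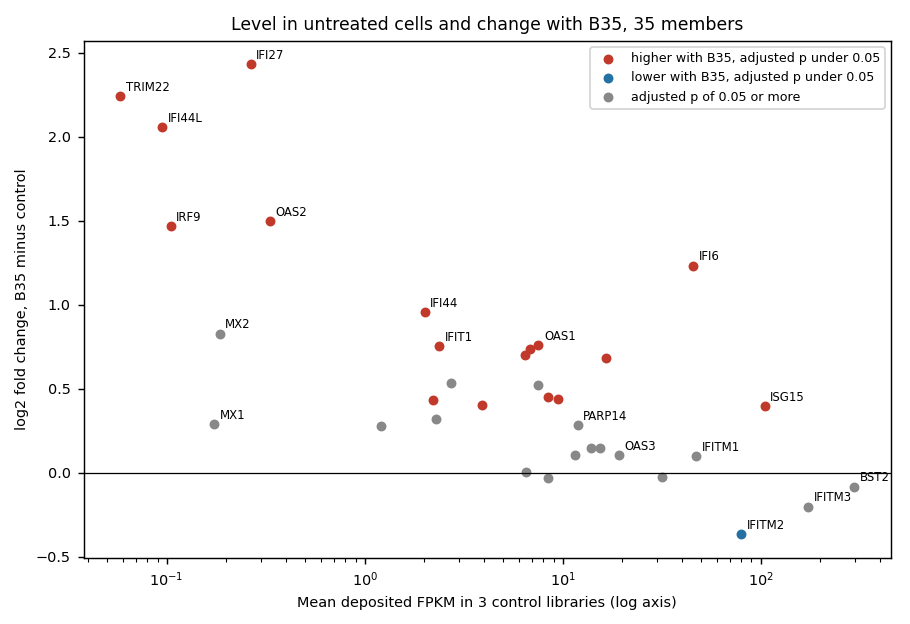
Mean deposited FPKM of each tested member in the 3 control libraries (log axis) against its log2 fold change with B35. IFI27, TRIM22, IFI44L, OAS2 and IRF9 lie at the upper left, under 1 FPKM, and BST2, IFITM3 and IFITM2 at the lower right; IFI6 and ISG15 rose from higher levels.

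Promoter sequence was examined because the members that moved and those that did not can be neighbours in 1 cluster. RefSeq promoter windows on GRCh38.p14, from 250 bases before to 50 after a start site, matched 31 members by symbol. OAS2, OASL, IFIT2, IFITM2, IRF7, USP18, MX2 and TRIM22 had none. The core of the interferon-stimulated response element, written as GAAA, then NN for any bases, then GAAA, was searched on both strands, and overlapping matches were counted. It occurred in 21 of the 31 members (67.7%) and in 4.38% of 27305 genes with a window (3.57% of 35116 windows). The core of the gamma-activated sequence, TTCNNNGAA, which reads the same on both strands, occurred in 10 of 31 members (32.3%) and in 9.38% of genes. Matches of both cores can overlap, as in BST2.

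The response element core occurred both in members that rose and in members that did not pass. It was found in 7 of the 12 members with a window that rose and in 12 of the 15 that did not pass. OAS1, STAT2, IRF1, IRF9 and HERC6 rose and had no match in these windows, while OAS3, IFIT5, IFITM3 and BST2 had 2 or more and did not pass. The first 4 stretches below belong to members that rose and the other 5 to members that did not, with matches in capitals, each written 5′ to 3′ on the strand of its gene. Where an annotated exon lies over the stretch, only 30 bases are given. They lie at chr14:94110613-94110665 (IFI27, plus strand), chr1:27672261-27672363 (IFI6, minus), chr10:89392492-89392544 (IFIT1, plus) and chr1:1013369-1013414 (ISG15, plus). The others lie at chr10:89414513-89414542 (IFIT5, plus), chr12:112938321-112938350 (OAS3, plus), chr11:320884-320913 (IFITM3, minus), chr19:17405738-17405767 (BST2, minus) and chr3:122564322-122564351 (DTX3L, plus).
IFI27: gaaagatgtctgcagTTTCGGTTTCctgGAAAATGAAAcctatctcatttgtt
IFI6: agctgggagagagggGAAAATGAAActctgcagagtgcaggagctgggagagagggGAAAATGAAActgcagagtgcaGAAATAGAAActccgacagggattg
IFIT1: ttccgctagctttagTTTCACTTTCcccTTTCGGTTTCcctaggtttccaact
ISG15: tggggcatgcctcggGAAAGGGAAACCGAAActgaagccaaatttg
IFIT5: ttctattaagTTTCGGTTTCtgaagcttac
OAS3: agaaagaaacGAAACTGAAAgcagggaatt
IFITM3: gGAAAAGGAAActgttgaGAAACCGAAAct
BST2: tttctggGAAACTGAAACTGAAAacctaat
DTX3L: ccagggaagcGAAACTGAAActttgcgccc

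IFIT1, which rose, and IFIT5, which did not pass, both hold the match TTTCGGTTTC. IFI6 holds 3 matches, and its GAAAATGAAA occurs at 156 and at 115 bases before the start site and also in IFI27. In ISG15 and BST2 a pair of matches overlaps. The match of DTX3L is also the match of PARP9, read from the other strand (chromosome 3, 122564332 to 122564341), so these divergent genes share 1 copy.

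**Figure D5:**
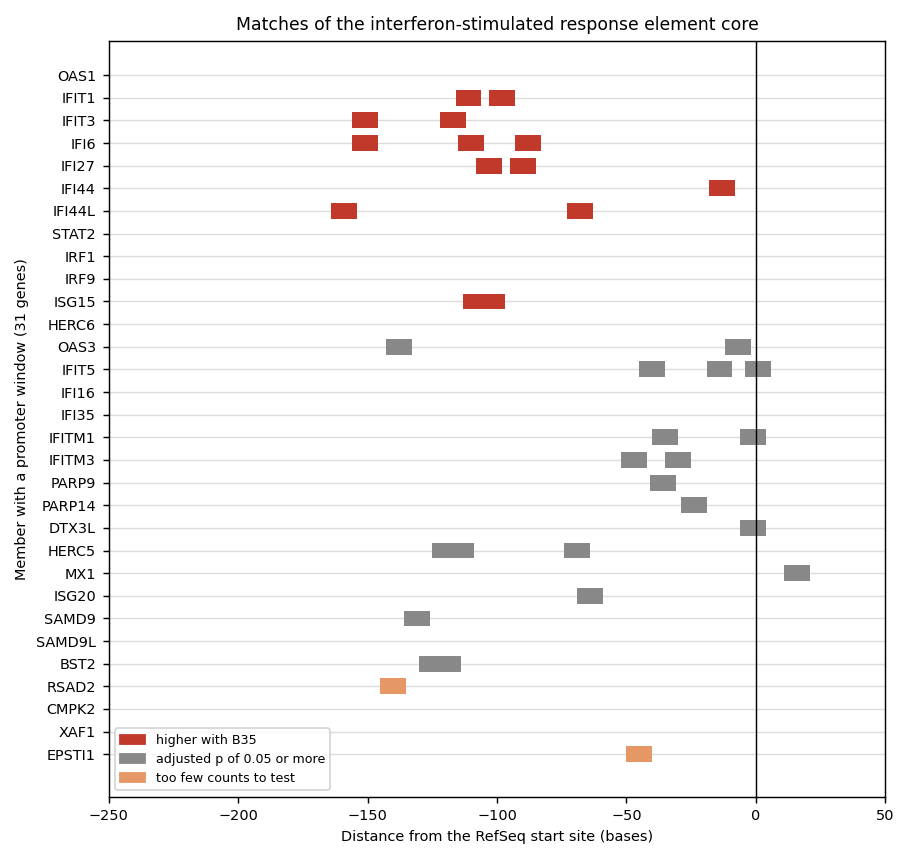
Position of each match of the response element core on either strand relative to the RefSeq start site, for the 31 members with a window (where a member has several windows, the most upstream one with a match is drawn). Bars are 10 bases long; members that rose are in red, those that did not pass in grey and those with too few counts in orange. Matches occur in both the red and the grey rows.

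Genes upstream of the set were then examined. Of 34 listed genes of the interferon pathway outside the set, 24 could be tested, and 1 rose and 1 fell, where 8.82% and 6.59% of all genes did, so nothing about the list is read from these counts. None of 10 interferon genes could be tested, and 6 of them had no reads. IFNB1, a type I interferon, had 1 read in controls and 2 with B35, and the 10 genes together had 0, 4 and 1 reads in the control libraries and 0, 5 and 4 in the B35 libraries. The list holds IFNA1, IFNA2 and IFNA5 only, of the interferon alpha genes. Of 6 receptor chains, IFNGR2, of the type II receptor, rose. It had 58.9, 53.8 and 56.0 CPM in controls and 77.5, 73.1 and 66.4 CPM with B35 (log2 0.36 ± 0.097, edgeR adjusted p = 0.0297), and missed the threshold without control replicate 1, 2 or 3 or B35 replicate 2 (edgeR adjusted p = 0.0706, 0.12, 0.135 and 0.0874).

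None of 5 kinases and STATs passed. The 2 of highest level were JAK1, the kinase common to the interferon receptors, at 250.1 ± 8.8 CPM in controls and 292 ± 42.9 CPM with B35, and STAT3, at 219 ± 15.5 and 209 ± 13.6 CPM (SD, n = 3 each). None of 6 genes that restrain the signal passed, and SOCS3, a feedback inhibitor, had 118, 146 and 133 CPM in controls and 116, 139 and 145 CPM with B35, while PIAS1 had 51.6, 42.2 and 44.8 CPM and 60.8, 44.5 and 45.2 CPM. Of 7 effector partners, 1 fell. This was TRIM25, a ubiquitin and ISG15 ligase, with 195, 198 and 187 CPM in controls and 138, 141 and 156 CPM with B35, all lower (log2 −0.41 ± 0.089, edgeR adjusted p = 0.0116). It no longer passed when control replicate 2 or 3 was left out (edgeR adjusted p = 0.053 and 0.0565).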

How the data were processed

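The submitters' processing notes name HISAT2 2.0.5, featureCounts 1.5.0-p3 and the hg38 build. The authors deposited a raw count and an FPKM value per gene for each library. FPKM values served only to compare levels between genes, and those notes do not say how they were scaled. The annotation and the strand setting are not given in those notes. All 58735 identifiers were found in GENCODE 29, which supplied symbols, positions, exon overlaps and transcript sequences.

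Counts were tested with edgeR 4.0.16 in R 4.3.3 (filterByExpr with a minimum count of 10 and minimum total of 15, TMM, two-sided quasi-likelihood test, Benjamini-Hochberg over 14773 genes, threshold 0.05). The SE is the log2 fold change divided by the square root of F. The test was run on simulated data first.

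Replicate libraries were not identical and differed by more than sampling noise. The alternatives used DESeq2 1.42.0, limma 3.58.1 and mgcv 1.9.3, and figures matplotlib 3.10.9. Alternatives covered scaling, filters, single libraries left out, the replicate number as a block, robust dispersion, removal of GC and length trends, and the deposited FPKM. All 39 members were named by rule, as were pathway genes that passed or, where none did in a list, the 2 of highest CPM. IFNB1 and the sequences shown were chosen after values were seen, as were the members given statistics beyond 3 a family. Members and lists were chosen with earlier results of these data known.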

Additional observations from a re-analysis of the deposited data

How the results depend on the processing

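With 1 library left out, the members that rose numbered 10 to 17 and those that fell 0 to 1, against 17 and 1 with all libraries, and over all genes 587 to 1822 rose and 294 to 1520 fell. The upstream list then had 0 to 3 rises and 0 to 1 falls. After removal of GC and length trends, 2 members fell and 2 upstream genes rose, and 2568 of all genes fell, or 2473 with the replicate block added (2 members and 2 upstream genes likewise). Upper-quartile scaling and no filter also gave 2 upstream rises. Deviations of same-numbered libraries correlated at r of 0.16, 0.016 and −0.063 across genes, which are not independent replicates. Those of differently numbered libraries ran from −0.22 to 0.25, so the numbers were not taken as pairs. With the replicate block 20 members rose and 1 fell, and MX2, SAMD9 and SAMD9L passed (edgeR adjusted p = 0.025, 0.0109 and 0.00462). Without the filter 20 rose, and DESeq2, limma-voom, relative log expression scaling, robust dispersion and a mean CPM of 1 or more gave 15, 17, 16, 17 and 16. Over all genes 1594 rose with the block and 1622 of 27717 without the filter, against 1303 of 14773 with the main settings. The other fits, in the order given, had 1246, 1256, 1272, 1314 and 1225. HERC6 missed the threshold with relative log expression scaling, without the filter and in DESeq2 (adjusted p = 0.0512, 0.0536 and 0.0606).

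Only members that never passed changed sign. The log2 fold change of USP18 was −0.0040 with relative log expression scaling, −0.0061 without the filter, −0.010 in DESeq2, −0.047 after removal of GC and length trends and −0.039 with the block as well. That of IFIT5 was 0.00030 with upper-quartile scaling and 0.0067 and 0.0033 in those GC fits, and that of IFI35 was 0.0040 with upper-quartile scaling. With 1 library left out the ranges were −0.081 to 0.10 for USP18, −0.12 to 0.080 for IFIT5, −0.13 to 0.062 for IFI35, −0.0045 to 0.22 for DTX3L, −0.16 to 0.015 for BST2 and −0.12 to 0.30 for IFITM1. The cause of these changes was not tested. IRF9 had 82 reads over all libraries together, and the part of counting error in its result was not tested.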
